A study of Mus musculus with 20 samples.

Results

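Of the H3K4me3 peaks called in the mouse mammary epithelial line Comma-Dβ, 1469 of the 16134 autosomal ones narrower than 5 kb (9.1%) overlapped neither an H3K27ac peak nor an H3K27me3 peak by even 1 bp. These 1469 peaks, called members below, were chosen by measured values: the peak calls of 3 histone marks and the width of the H3K4me3 peak. The whole H3K4me3 list held 17162 peaks. Of the other narrow autosomal peaks, 12245 (75.9%) overlapped H3K27ac only, 1670 (10.4%) H3K27me3 only and 750 (4.65%) both marks.

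Chromatin immunoprecipitation with sequencing was done on this 1 line at passage 28, and the labels name no genetic change or treatment. The 20 samples formed 5 groups of 4 replicates, called biological by the submitters, 1 group each for antibodies to H3K4me3, H3K27ac, H3K27me3 and the E protein transcription factor HEB, and 1 for input chromatin. One peak list was deposited for each antibody, so no value below has a replicate error, no test between groups of samples was possible, and intervals cover counting error only. A peak's fold enrichment, the ratio of ChIP over control signal, and its −log10 q-value, which grows with the certainty of the call, are the authors' own, and the read depth behind them is unknown.

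H3K4me3 is laid down by SET1 and MLL complexes, mostly around transcription start sites rich in CpG. H3K27ac is made by the acetyltransferases p300 and CBP at active promoters and enhancers. H3K27me3 is made by Polycomb repressive complex PRC2 at silenced genes, and a lysine that is acetylated cannot be methylated at the same time.

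Promoter sequences of 6 genes whose start carried one of the strongest members are given first, since they show how far CpG content ranged among these starts. The 6 were picked from the strongest members after the values had been seen. Each runs 5′ to 3′ from 250 bases before to 50 after the transcript start, from RefSeq promoters of GRCm38.p6, and capitals mark each CG dinucleotide.
Tctn3 promoter: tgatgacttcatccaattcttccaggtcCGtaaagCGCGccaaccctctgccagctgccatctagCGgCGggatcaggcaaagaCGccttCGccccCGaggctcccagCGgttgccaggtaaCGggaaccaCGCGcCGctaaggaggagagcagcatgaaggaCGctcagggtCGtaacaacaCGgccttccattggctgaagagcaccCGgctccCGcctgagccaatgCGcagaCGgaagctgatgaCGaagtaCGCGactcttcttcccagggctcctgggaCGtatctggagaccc
Zfp850 promoter: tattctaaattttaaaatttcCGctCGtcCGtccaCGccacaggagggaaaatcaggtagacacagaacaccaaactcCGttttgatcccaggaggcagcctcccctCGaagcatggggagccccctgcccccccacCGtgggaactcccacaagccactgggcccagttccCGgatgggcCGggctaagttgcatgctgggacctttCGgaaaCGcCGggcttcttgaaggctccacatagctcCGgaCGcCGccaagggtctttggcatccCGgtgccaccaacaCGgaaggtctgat
Trmt10b promoter: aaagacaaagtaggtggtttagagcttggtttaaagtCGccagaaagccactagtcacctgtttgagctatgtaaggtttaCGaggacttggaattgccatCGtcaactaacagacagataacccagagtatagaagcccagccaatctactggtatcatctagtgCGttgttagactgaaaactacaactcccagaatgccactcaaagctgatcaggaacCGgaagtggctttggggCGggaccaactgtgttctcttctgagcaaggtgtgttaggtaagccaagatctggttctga
Xpr1 promoter: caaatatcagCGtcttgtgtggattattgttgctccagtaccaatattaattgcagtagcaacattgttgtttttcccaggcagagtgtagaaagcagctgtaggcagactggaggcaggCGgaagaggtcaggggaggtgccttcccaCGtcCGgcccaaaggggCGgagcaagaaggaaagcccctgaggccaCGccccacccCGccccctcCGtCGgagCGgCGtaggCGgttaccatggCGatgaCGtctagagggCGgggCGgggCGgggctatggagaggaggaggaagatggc
Gm14305 promoter: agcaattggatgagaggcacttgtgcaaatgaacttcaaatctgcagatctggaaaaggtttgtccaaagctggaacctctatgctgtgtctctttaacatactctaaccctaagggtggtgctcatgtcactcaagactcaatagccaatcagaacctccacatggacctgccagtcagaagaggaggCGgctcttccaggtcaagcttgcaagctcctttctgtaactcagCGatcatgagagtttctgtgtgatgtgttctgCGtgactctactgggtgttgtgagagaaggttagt
Zfp931 promoter: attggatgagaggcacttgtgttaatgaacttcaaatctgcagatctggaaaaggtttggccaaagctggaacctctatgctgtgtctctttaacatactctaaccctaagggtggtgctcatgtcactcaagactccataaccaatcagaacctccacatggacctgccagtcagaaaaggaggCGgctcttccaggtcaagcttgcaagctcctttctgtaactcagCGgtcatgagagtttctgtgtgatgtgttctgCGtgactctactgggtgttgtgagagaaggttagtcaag

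Tctn3, which encodes tectonic 3 of the ciliary transition zone, starts within chr19:40612182-40612481 on the minus strand. Its promoter held 24 CpG, and its CpG count was 0.854 of that expected from its C and G content, a ratio called the CpG ratio below. Zfp850, a zinc finger gene at chr7:28014066-28014365 (minus strand), had 17 CpG and a ratio of 0.66. Xpr1, the phosphate exporter gene at chr1:155417395-155417694 (minus strand), also had 17 CpG, at a ratio of 0.662. Trmt10b, a gene of the tRNA methyltransferase family at chr4:45296918-45297217 (plus strand), had 6 CpG and a ratio of 0.382. The zinc finger cluster genes Gm14305, at chr2:176708103-176708402 (plus strand), and Zfp931, at chr2:178078376-178078675 (minus strand), each had 3 CpG and a ratio of 0.182. The members over these starts had folds between 23.1 and 27.6, a narrow range that their choice among the strongest members fixed. Aligned as a pair with shifts allowed, the Gm14305 and Zfp931 promoters were 96.3% identical. The same alignment gave 54.7% for Gm14305 and the promoter of Ppp1r3d. Reads from near-identical copies may not be placed with certainty.

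Most members were weak and narrow. Their H3K4me3 fold ran from 1.31 to 29.2 with a median of 3.52 (interval 3.36 to 3.73) and quartiles of 2.44 and 6.68. Peaks with H3K27ac only had a median fold of 17.7, those with H3K27me3 only 3.89 and those with both marks 10.2. The median width was 583 bp for members, against 1959, 864 and 1947 bp in the same order. These values come from the lists that defined the classes and are given as a description. A −log10 q of 5 or more was reached by 75.7% of members, 89.6% of H3K27ac-only peaks and 79.5% of H3K27me3-only peaks. At the low end, 132 members (8.99%) had a fold under 2, and 5 of these still had a −log10 q of 5 or more. The extreme was a 215 bp peak at chr9:35305318-35305532, with a fold of 1.54 and a −log10 q of 1360, followed by chr12:3109897-3110129 with a fold of 1.73 and a −log10 q of 543. These 5 were singled out after their values had been seen.

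**Figure D1:**
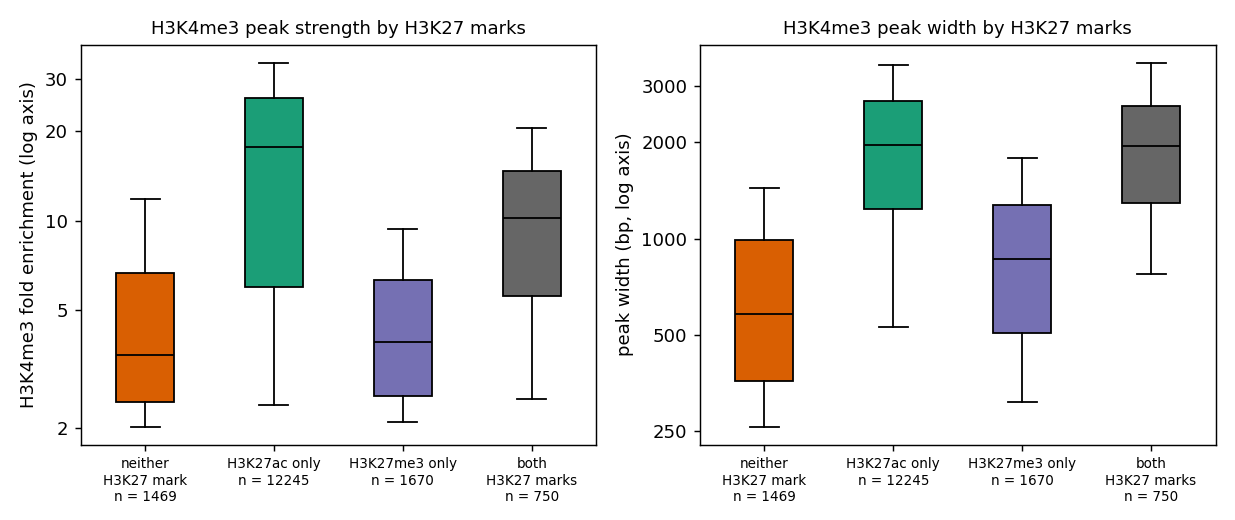
H3K4me3 fold enrichment (left) and peak width in bp (right), both on log axes, for autosomal H3K4me3 peaks under 5 kb in 4 classes. Boxes span the quartiles with the median as a line, and whiskers reach the 10th and 90th percentiles. Members have the lowest median in both plots, 3.52 for fold and 583 bp for width.

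The limits of the rule were crossed by small distances in places. The widest members measured 3929, 3336 and 3225 bp, and 0 autosomal peaks of 5 kb or more lacked both marks, so the width limit removed none. Members close to an H3K27ac peak included one 11 bp away beside Hp and one 44 bp away, with folds of 2.06 and 1.83. The members nearest an H3K27me3 peak were 3, 12 and 14 bp away, with folds of 2.74, 2.11 and 6.23. Just outside, the smallest overlaps with H3K27ac were 8, 9 and 11 bp, at folds of 2.12, 2.05 and 2.14. The smallest overlaps with H3K27me3 were 14, 15 and 32 bp, at folds of 2.2, 2.61 and 2.16. Less than 10% of the peak was covered in 14 H3K27ac-only and 17 H3K27me3-only peaks.

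Many members lay near one of the marks they did not overlap. The whole lists held 114660 H3K27me3 and 61496 H3K27ac peaks, and the distances to the 2 marks were not corrected for this difference. The nearest H3K27me3 peak was at a median of 8.01 kb and the nearest H3K27ac peak at 13.3 kb. For comparison, H3K27ac-only peaks lay a median of 29515 bp from H3K27me3, and H3K27me3-only peaks 18199 bp from H3K27ac. The shares by distance below were computed for members only. Within 1 kb, 267 members (18.2%) had an H3K27me3 peak and 66 (4.49%) an H3K27ac peak. Within 10 kb, these counts were 780 (53.1%) and 608 (41.4%). H3K27me3 was the nearer mark in 806 members (54.9%, 95% Wilson interval 52.3 to 57.4) and H3K27ac in 663 (45.1%). Neither mark lay within 10 kb of 360 members (24.5%), and neither within 100 kb of 37 (2.52%). Few members stood beside an H3K4me3 peak of another class: 52 (3.54%) had one within 2 kb, and 8 within 1 kb. From the weakest to the strongest of 4 bands of fold (under 3, 3 to under 5, 5 to under 10, and 10 or more), the median distance to H3K27me3 was 9903, 7880, 7205 and 6851 bp. To H3K27ac it was 13778, 12382, 13600 and 14807 bp. An H3K27me3 peak lay within 1 kb of 39 of the 197 members of fold 10 or more (19.8%) and of 92 of the 597 members of fold under 3 (15.4%). For H3K27ac the counts were 8 (4.06%) and 29 (4.86%).

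**Figure D2:**
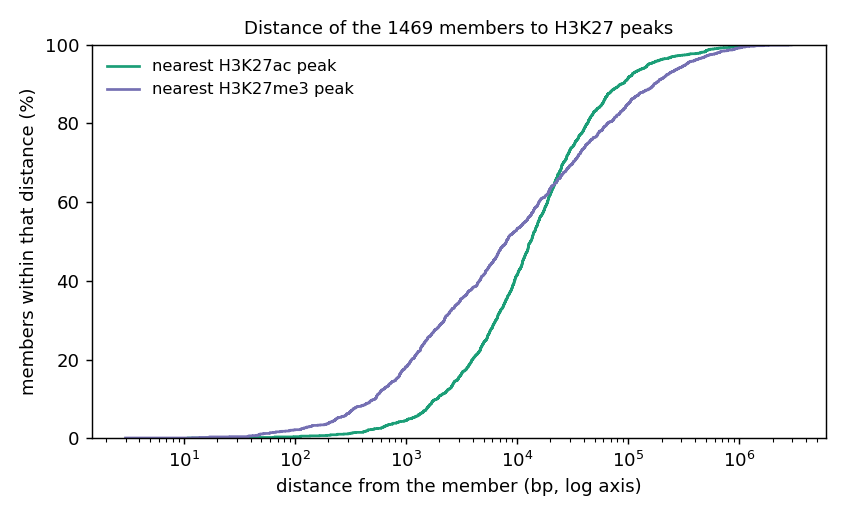
Cumulative share of the 1469 members (%) by distance in bp (log axis) to the nearest H3K27ac peak and the nearest H3K27me3 peak. The H3K27me3 curve is the higher one at short range, with 18.2% against 4.49% at 1 kb, and at 100 kb it is the lower one, with 84.9% against 91.4%. The curves are not corrected for list size, which was 114660 peaks for H3K27me3 and 61496 for H3K27ac.

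Members reached genes less often than the other H3K4me3 peaks did. Gene ends, which are the first and last base of a gene with its direction left aside, were taken from the RefSeq gene table of GRCm38.p6. Of the members, 491 (33.4%, 31.1 to 35.9) lay within 1 kb of an end of a protein-coding gene, against 62.8% of all 16134 peaks. The share was 65.9% for H3K27ac-only, 62.8% for H3K27me3-only and 69.7% for peaks with both marks. Another 159 members (10.8%) had only a non-coding gene end within 1 kb, against 6.79% of all 16134 peaks. Inside a protein-coding gene but away from any end lay 345 (23.5%, against 17.4% of all). Outside such genes and ends lay 474 (32.3%, against 13.1% of all and 11.1% of H3K27ac-only peaks). More than 10 kb from any gene end were 372 members (25.3%, 23.2 to 27.6), against 12.9% of H3K27ac-only and 10.5% of H3K27me3-only peaks.

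Strength and position went together. Bands of fold, set after the values had been seen, gave a share at coding gene ends of 14.7% among the 597 members of fold under 3 and 24.1% among the 374 from 3 to under 5. It was 53.2% among the 301 from 5 to under 10 and 77.7% (71.4 to 82.9) among the 197 of 10 or more. H3K27ac-only peaks in the same bands gave 6.9, 17.4, 44.3 and 87.3%, and H3K27me3-only peaks 48.8, 62, 76.6 and 79.9%. Within a band the share of members was therefore above that of H3K27ac-only peaks in the lower 3 bands and below it in the top one. Members more than 10 kb from a gene end fell from 38.2% in the lowest band to 4.06% in the highest. Median width rose over the bands from 352 to 584, 951 and 1366 bp.

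**Figure D3:**
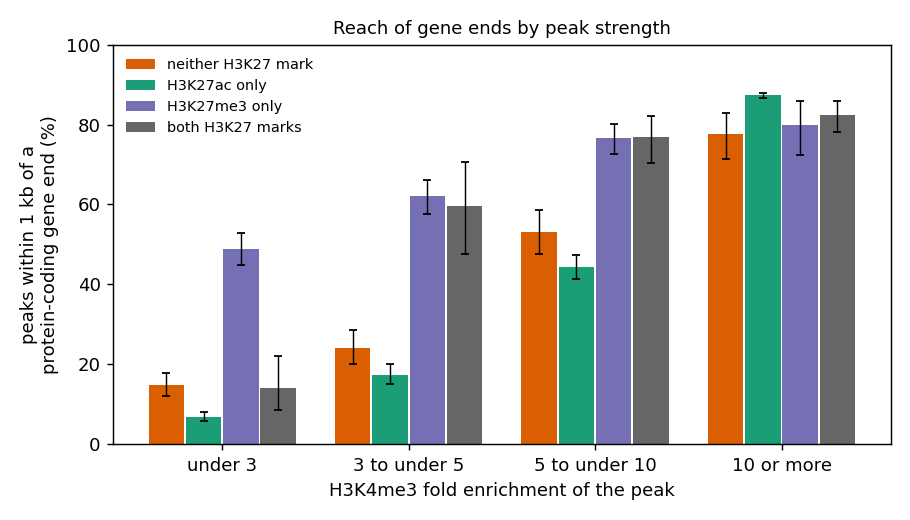
Share of peaks within 1 kb of a protein-coding gene end (%) by band of H3K4me3 fold enrichment, for members and the other 3 classes, with Wilson 95% intervals as error bars. Members rise from 14.7% in the lowest band to 77.7% in the highest, and H3K27me3-only peaks stand above them in the lower 3 bands.

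At gene level, 530 of 20661 autosomal protein-coding genes (2.57%) had a member within 1 kb of an end, whereas 45.2% had an H3K27ac-only peak there. For 472 of the 530 (89.1%) no other H3K4me3 peak lay at either end. Direction was known for 413 of the 530 from the promoter table. The member lay within 1 kb of a listed start in 356 of them (86.2%), and 57 (13.8%) had no listed start that near. Whether the member of these 57 lay at the finish was not checked. Only 59.8% of the 16456 coding genes in the promoter table have a listed start at the 5′ end of the gene. Counted from starts, 427 of 16456 genes had a member within 1 kb, and 30 of these also had another H3K4me3 peak at a start. The bodies of the other 397 genes were not empty of H3K27 marks. An H3K27ac peak overlapped the body of 179 of them (45.1%, 40.3 to 50) and an H3K27me3 peak that of 119 (30%, 25.7 to 34.7), while 156 (39.3%, 34.6 to 44.2) had neither mark from end to end. Over all genes of the promoter table these shares were 63.6, 33.8 and 15.1%. The rule itself keeps both marks off the member at the start, so part of this gap is set by the selection. Median gene length was 26 kb in the former and 17.3 kb in the latter.

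The 20 strongest members at coding gene ends had folds of 20.8 to 29.2. The highest lay at an end of Zfp354a (chr11:51059005-51060096, 1092 bp), a KRAB zinc finger gene, at a fold of 29.2 and a −log10 q of 575. H3K27me3 lay 768 bp from it and H3K27ac 148 kb from it. The next, of fold 27.6, covered the starts of Tctn3 and of Entpd1, which encodes the ectonucleotidase CD39 and points the other way. Zfp850 followed with 27.5, Trmt10b with 26.6, and the membrane ubiquitin ligase gene Marchf2 with 25.5. Xpr1 and Rab29, a small GTPase gene, both had 24.5. Eif5a2, for a form of translation factor eIF5A, had 23.7, and Ppip5k1, an inositol pyrophosphate kinase gene, 23.4. Rnf152, for a lysosomal ubiquitin ligase, had 22.9. Slc23a2, the gene of a vitamin C transporter, had 22.4, and Cmtm4 22.2. Pot1b, for a telomere-binding protein, had 21.8, and Ift22, for an intraflagellar transport protein, 21.3. The deubiquitinase gene Otud3 had 21.2. The remaining ones were Gm14305, Zfp931, 1110051M20Rik, the zinc finger gene Zik1 and the pair Dennd11 and Wee2. A transcript start lay inside 15 of these 20 members. H3K27me3, the mark with the longer peak list, was nearer than H3K27ac for 16, and lay within 1 kb of 6 and within 10 kb of 17. H3K27ac lay within 10 kb of 6.

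Starts of different coding genes on both strands lay inside 11 of the 340 members with a coding start inside (3.24%). Pairs with a lncRNA start, such as Zfp931 and Gm35319, were not counted. The share in the other H3K4me3 peaks was not computed. Besides Entpd1 and Tctn3, the 11 included Samd15 and Tmed8 at a fold of 17. The unnamed gene 1700003E16Rik shared one with Wdr54 at 14.8, and Dnaic1, for an axonemal dynein chain, one with Fam219a at 13.5. Dync2h1, for the heavy chain of the ciliary transport dynein, shared a member of fold 7.59 with Dcun1d5.

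Some members lay at a coding transcript start away from every coding gene end, as internal starts of a gene do. There were 71 of these (4.83%), and the share in the other H3K4me3 classes was not computed. The strongest of the 71 had a fold of 18.4. It lay at a start of Camkk1, a calcium/calmodulin-dependent kinase kinase gene, beside the lncRNA gene 4732414G09Rik. The next lay at a start of Mxi1, a MAX-binding repressor gene (17.1). Zfp661 followed with 16.4, Spdya with 15.6, Hlcs, the holocarboxylase synthetase gene, with 15.5, and Intu, a planar polarity and cilium gene, with 15.2. Tnfrsf19, a receptor of the TNF family, had 14.5, and Slc4a4, a sodium bicarbonate cotransporter gene, 13.5. A start of Esr1, which encodes estrogen receptor alpha, carried an 873 bp member at chr10:4709875-4710747 with a fold of 4.61, 97.9 kb from the nearest gene end and 503 bp from H3K27me3. Esr1 was named after its values had been seen.

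Strong members also lay at non-coding genes and far from genes. The highest at a non-coding gene only had a fold of 22.2 and lay at the arginine tRNA gene n-TRtcg2 on chromosome 13. Others were at the lncRNA genes Gm39606 (17.8) and A330040F15Rik (14.4), and at Mir193b with Gm32817 and Gm53058 (12.5). The 8 strongest more than 10 kb from any gene end had folds of 10.6 to 18.7. One of them, chr18:4634806-4636148, had a fold of 18.6 and lay 44 kb from Jcad, 17 kb from H3K27ac and 277 kb from H3K27me3. Of the 8, 2 held a start of a transcript, those of Hlcs and Slc4a4. One on chromosome 12, with a fold of 11.2, had no H3K27ac within 727 kb and no H3K27me3 within 623 kb.

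tRNA genes, which RNA polymerase III transcribes, had an end within 1 kb of 13 members (0.885%), a share near the 0.843% of all peaks. Of these 13, 12 lay on chromosome 13 between 21.2 and 23.5 Mb, in and around the large histone and tRNA gene cluster. Their folds ran from 1.97 to 22.2 with a median of 4 over the 13. The widest member of all, 3929 bp at chr13:23306543-23310471 with a fold of 9.4, covered n-TIaat9 and n-TVcac11. Of the 105 tRNA genes on chromosome 13, 90 had an H3K4me3 peak of any width at an end. Among narrow peaks, 18 of these genes had a member, 52 an H3K27ac-only and 6 an H3K27me3-only peak. Over all autosomes, 19 of 391 tRNA genes had a member and 162 an H3K27ac-only peak. None of the 73 replication-dependent histone genes had a member at an end, while 52 had an H3K27ac-only peak.

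Most members, 1140, had no other member within 100 kb, while 329 (22.4%) had one. This share was not computed for the other classes or for evenly spread positions, so it does not show whether members were grouped. The longest run held 6 members at chr13:21855142-22016360, at 9 tRNA genes and Mir1983, with folds of 2.37 to 17.9. A run of 5 at chr18:37655674-37737372 lay in the protocadherin gamma cluster, with folds of 2.01 to 2.93. On distal chromosome 2, 7 members lay between 175.1 and 178.4 Mb, where zinc finger genes stand in many related copies. Gm14305 had a fold of 23.8, Zfp931 23.1, Gm14295 19.5 and Gm14322 14, and one at chr2:175141140-175142178 without a gene end within 1 kb had 20.1. The promoters of Gm14305, Gm14322 and Zfp931 were 89.3 to 96.3% identical when aligned in pairs, so the fold of each copy is uncertain. Against the promoter of Ppp1r3d in the same stretch they scored 54 to 54.7%. These runs were picked after the values had been seen. By chromosome, members made up from 6.66% of the narrow peaks (chromosome 17, 5.09 to 8.67) to 12.5% (chromosome 12, 10.1 to 15.5), and chromosome 2 held the most, 136.

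Gene lists were read against the 2.57% of all coding genes, without a test. C2H2 zinc finger genes named Zfp, Zscan or Zkscan, most of them DNA-binding repressors, had a member at 30 of 415 (7.23%, 5.11 to 10.1), and 276 had an H3K27ac-only peak. Their folds ran from 2.18 to 29.2 with a median of 7.48, and 11 of the 30 reached 10, against 163 of the 530 genes in all. Counted from starts, 25 of 345 (7.25%) had a member. Beside Zfp354a, Zfp850 and Zfp931, the strongest were at Zfp365 (17.8), Zfp940 (13.9), the neighbours Zfp445 and Zkscan7 (13.7, shared) and Zfp28 and Zfp78 (13.1, shared). Zinc finger genes are often near-identical copies, and the labels do not say how reads matching several copies were placed.

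Genes of the cilium had a member at 6 of 67 (8.96%), while 48 had an H3K27ac-only peak. These 6 were Tctn3 (27.6), Ift22 (21.3), the motor gene Kif7 of Hedgehog signalling (14), the BBSome gene Bbs1 (13.6), Ccdc39, needed for motile cilia (8.52), and Dync2li1 (7.47). From starts the count was 7 of 57, with Dnah1 (2.52) and Dync2h1 (7.59) added and Dync2li1 absent. Solute carrier genes had 14 of 376 (3.72%), led by Slc23a2, the zinc transporter gene Slc39a3 (15.4), Slc8b1 (13.3) and Slc22a23 (13.1). Genes named Tmem had 12 of 231 (5.19%) and genes named Ccdc 9 of 134 (6.72%), both groups by name and not by function. Protocadherin genes, for neuronal adhesion proteins, had 7 of 67 (10.4%), all weak, with folds of 2.01 to 3.83, Pcdhb16 and Pcdhga1 (2.93) being the highest.

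Among mammary lists, each of 15 to 26 genes, counts were small. Of 26 basal genes, 3 had a member (11.5%, 4 to 29). These were Procr, the protein C receptor (7.61), Itga2, an integrin chain (7.55), and Lama3, a laminin chain (6.05).  Of 21 luminal progenitor genes, 3 had one (14.3%, 4.98 to 34.6). These were Itga2, which stands in both lists, the tight junction gene Cldn1 (5.31) and the casein gene Csn3 (2). The only myoepithelial gene of 19 was Synpo2 (5.37). Of 15 hormone-sensing luminal genes, 0 had a member at a gene end, which allows a share of up to 20% when 3 counts are taken as the limit of a count of 0, and the internal Esr1 start is described above. Neuronal markers had 2 of 18 (11.1%, 3.1 to 32.8), Eno2 (9.22) and Gap43 (1.92). The basal, luminal progenitor and neuronal intervals lay above the 2.57% of all coding genes, on these small counts. Markers of immune, endothelial, stromal fibroblast, adipocyte and skeletal muscle cells had 0, in lists of 10 to 20 genes. For the labelled cell type, narrow H3K27ac-only peaks taken alone gave no clear sign, since all coding genes had them at 45.2%. They lay at 8 of 26 basal (30.8%), 7 of 21 luminal progenitor (33.3%), 6 of 19 myoepithelial (31.6%) and 5 of 15 hormone-sensing genes (33.3%). Stromal fibroblast markers had 6 of 13 (46.2%), neuronal 2 of 18, immune 2 of 20, skeletal muscle 1 of 12, endothelial 0 of 12 and adipocyte markers 0 of 10. Narrow peaks with both marks, which also carry H3K27ac, lay at 5 of 26 basal, 5 of 21 luminal progenitor and 3 of 15 hormone-sensing genes. They lay at 0 of 19 myoepithelial genes and at 0 genes of the stromal fibroblast, neuronal, immune, skeletal muscle, endothelial and adipocyte lists. Differences between the lists were not tested.

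The genes of 2 enzymes that act on the absent marks carried members. Crebbp, for the acetyltransferase CBP, had one of the widest, 3336 bp at chr16:4211551-4214886 with a fold of 18.7, lying 1.35 kb from H3K27me3 and 49.9 kb from H3K27ac. Ezh1, for a catalytic subunit of PRC2, had a member of 1397 bp with a fold of 13.1. It lay 2.34 kb from H3K27me3 and 4.03 kb from H3K27ac. They were the only members among 49 genes of Polycomb and Trithorax complexes (4.08%, 1.13 to 13.7), of which 38 had an H3K27ac-only peak. That interval includes the 2.57% of all coding genes, so the list does not stand apart from the background. Single genes or pairs were found in other lists: Igf2r (7.31) of 38 imprinted genes, Tex15 (8.47) and Mei4 (7.84) of 69 germline genes, Rsad2 (3.32) and Cxcl2 (3.01) of 62 interferon and inflammatory genes, Neil2 (5.16) of 77 DNA repair genes and Atp5d (6.36) of 68 respiratory chain genes.

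Of the 33 lists, 17 held 0 genes with a member. Broadly expressed groups among them had H3K27ac-only peaks in most genes: 50 of 54 cell cycle genes, 35 of 36 aminoacyl-tRNA synthetase genes, 73 of 78 mitochondrial ribosomal and 67 of 79 cytosolic ribosomal protein genes. By the same limit of 3 counts, a count of 0 allows shares of up to 5.56, 8.33, 3.85 and 3.8%, each above the 2.57% background. Olfactory receptor genes had 0 of 1104, which allows up to 0.272%, and vomeronasal receptor genes 0 of 352, which allows up to 0.852%, both below the background share. Narrow H3K4me3 peaks of any class were almost absent there. They lay at an end of 0 olfactory and 2 vomeronasal receptor genes, the 2 being H3K27ac-only. The Wilson upper bounds of these 6 lists are somewhat higher, at 6.64, 9.64, 4.69, 4.64, 0.347 and 1.08% in the order named.

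**Figure D4:**
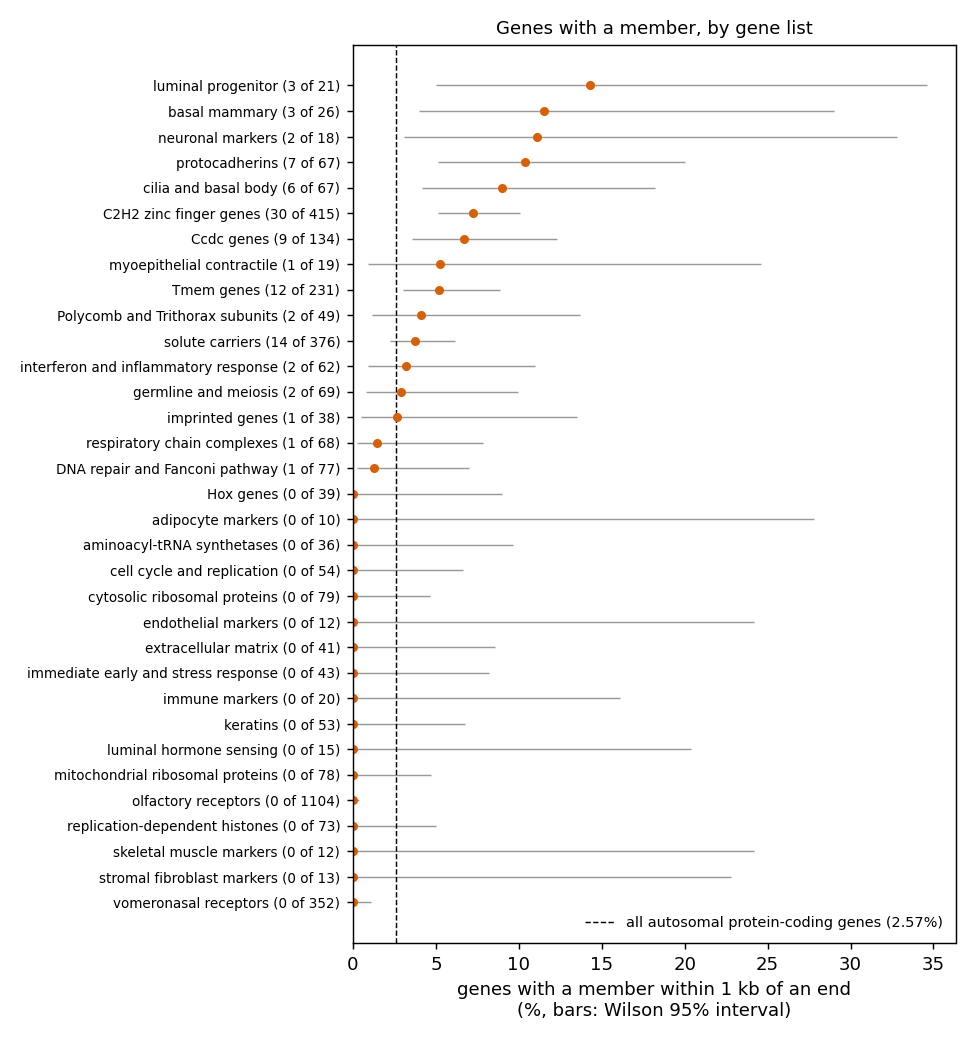
Share of genes with a member within 1 kb of an end (%) in each of the 33 gene lists, with Wilson 95% intervals as bars and counts beside the names. The dashed line marks the 2.57% of all autosomal protein-coding genes, which 23 of the intervals include, while 8 lie above it and 2 below it. Those above are zinc finger genes (5.11 to 10.1), cilium genes (4.17 to 18.2), protocadherin, Tmem, Ccdc, basal mammary, luminal progenitor and neuronal genes.

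Promoters under members were rich in CpG but less so than those under acetylated peaks. The start of 443 promoters, of 407 genes, lay inside a member, 382 of them of coding genes and 61 of lncRNA genes. Their median CpG ratio was 0.688 (quartiles 0.525 and 0.839), and 284 (64.1%, 59.5 to 68.4) reached 0.6 or more, against 36.4% of all 31396 autosomal promoters. The share was 79.1% under H3K27ac-only peaks, with a median of 0.803, and 72.1% under H3K27me3-only peaks, with a median of 0.733. At starts without an H3K4me3 peak it was 8.81%, with a median of 0.217. Among members, the share was 46.4% (37.9 to 55.1) for folds under 5, 63.5% from 5 to under 10 and 77.6% (70.8 to 83.3) for 10 or more. The classes were not matched for fold: 13.4% of members and 68.4% of H3K27ac-only peaks had a fold of 10 or more. The lowest ratio was 0.0725 at Cd59a, a complement inhibitor gene, whose member had a fold of 5.48. Gm14322 was low too, at 0.114 with a fold of 14.

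**Figure D5:**
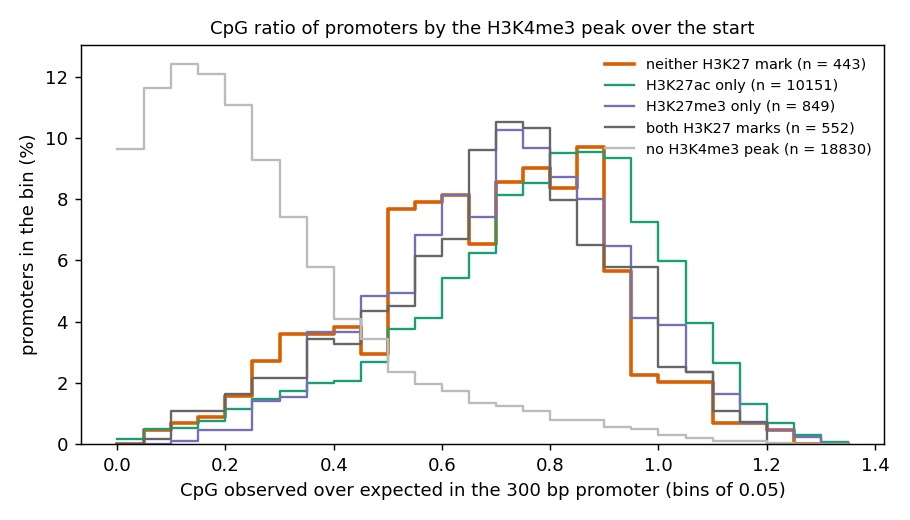
Distribution of the CpG ratio (observed over expected, bins of 0.05) in 300 bp promoters, as a share of each class (%), by the class of the H3K4me3 peak over the transcript start. Members spread from low ratios to about 1, between the promoters without an H3K4me3 peak (median 0.217) and those under H3K27ac-only peaks (median 0.803).

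Short motifs were searched on both strands of the 300 bp promoters, and a match is a run of letters, not a bound site. The ETS-type run CCGGAAG was found in 9.93% of member promoters (7.48 to 13.1), in 21.1% under H3K27ac-only peaks, 4.59% under H3K27me3-only peaks and 9% of all promoters. In Trmt10b it stands before the start, within the printed sequence. The NRF1-type run GCGCATGC was in 3.61, 6.27, 2.24 and 2.7% in the same order, and the CRE run TGACGTCA in 1.81, 3.68, 1.53 and 1.83%. The TATA-type run TATAAA was in 8.13, 5.68, 6.36 and 13.6%. The CCAAT run was in 40.9, 37.9, 29.7 and 37.3%, and is present in the printed Tctn3, Trmt10b, Xpr1, Gm14305 and Zfp931 promoters. The GC box GGGCGG was in 64.8, 67.9, 73.6 and 36%. The E-box CAGCTG, a form that E proteins such as HEB can bind, was in 18.3, 14, 16.5 and 16.3%. No motif searched contains another, on either strand.

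HEB sites were rare among members. Of the 1469, 2 overlapped one of the deposited HEB sites (0.136%, 0.0373 to 0.495), against 1.07% of all narrow peaks. The counts were 148 of 12245 H3K27ac-only peaks (1.21%), 3 of 1670 H3K27me3-only peaks (0.18%) and 19 of 750 peaks with both marks (2.53%). A wider peak can overlap a site more easily, and these shares were not corrected for width. Median width was 583 bp for members and 1707 bp for all narrow peaks. Within 10 kb of a HEB site lay 15 members (1.02%, 0.62 to 1.68), 3.1% of H3K27ac-only peaks, 0.838% of H3K27me3-only peaks and 5.73% of peaks with both. One of the 2 members with HEB was a 2819 bp peak at chr10:123074542-123077360 of fold 13.1, which overlapped an end of Mon2, an endosomal trafficking gene, and lay 329 bp from H3K27me3. The other, chr3:56575553-56575985, had the lowest fold of all members, 1.31, and lay 122 kb from the nearest gene end.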

How the data were processed

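ChIP-seq peak lists of H3K4me3, H3K27ac, H3K27me3 and HEB in Comma-Dβ cells were analysed as deposited, 1 per antibody. Coordinates are mm10, and SAMtools was used, per the submitters' processing notes. For the aligner, peak caller, control and pooling of replicates, details were not given in the sources used here. In each histone list the deposited columns were the positions, the fold enrichment (a ratio of ChIP over control), a −log10 p-value, a −log10 q-value and an integer score, all the authors' own; the score and the −log10 p-value were not used. The deposited HEB list holds positions, and by its name is a consensus with an overlap of at least 2. Depth per sample is unknown.

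Overlap was 1 bp or more. Gene ends and 300 bp promoters came from RefSeq tables of GRCm38.p6, the assembly behind mm10. Strand was known only for the 16456 autosomal coding genes with a promoter entry, and exons were not used. Shares have Wilson 95% intervals, a count of 0 is also given the limit that 3 counts would set, and the median fold an interval from binomial order statistics. Peaks and genes are not replicates, and comparisons are descriptions without tests. Members, bands and lists were chosen with earlier results of these data known. Named were the 20 strongest members at coding gene ends, the 8 strongest at non-coding ends only, the 8 strongest over 10 kb from gene ends, the 5 widest, those with HEB, up to 6 genes per list by fold, and the 3 nearest each limit of the rule; 2 of these members are not reported here. Interval code was tested on simulated intervals. Python 3.11.15, numpy 2.4.6, pandas 2.3.3, statsmodels 0.14.6 and scipy 1.17.1 were used. Alternatives changed the peak thresholds, overlap rule, width limit, chromosomes, joining of peaks and window.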

Additional observations from a re-analysis of the deposited data

How the results depend on the processing

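The number of members kept within 1.5 times of 1469 under 8 of 11 alternatives. It was 126 when only H3K4me3 peaks above the list's median fold of 12.9 were used, 2731 when H3K27ac peaks needed a −log10 q of 5 or more, and 2978 when an H3K27 peak had to cover 50% of the H3K4me3 peak. In the same order the median fold was 15.9, 4.69 and 7.58, the share at coding gene ends 80.2, 43.1 and 56%, and the number of coding genes 111, 1274 and 1830. With H3K4me3 peaks of −log10 q of 5 or more, the median fold was 4.55, the share at coding gene ends 39.3% and the share with an H3K4me3 peak of another class within 2 kb 2.7%. That last share was 2.38%, and the HEB share 0.794% (1 of 126), above the median fold. Raising an H3K4me3 threshold raises the median fold by construction, and for the other changes the cause was not tested. The share at gene ends was also 38.5% with H3K27me3 peaks of −log10 q of 5 or more and 39.4% with a window of 2500 bp. Alternatives added after the data were seen gave 36% and a median fold of 3.85 with H3K4me3 folds of 2 or more, and 28.3% with transcript starts in place of gene ends. No paired analysis was possible because each antibody has 1 list without replicate columns. The weak H3K27me3 and H3K27ac calls, and unknown depth, limit what absence of a peak shows: a mark under the calling threshold is counted as absent.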
